A study of Mus musculus with 4 samples.

Results

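Desmosomes are the junctions that rivet epithelial cells together and tie their keratin filaments to the cell border. The 10 genes described here are 9 desmosome genes, Dsg1a, Dsg2, Dsg3, Dsc2, Dsc3, Pkp1, Pkp3, Dsp and Jup, and Trp63, the gene of the transcription factor p63, which maintains the basal cells of stratified epithelium. They were chosen by name, as the probe sets that carry 1 gene symbol in the platform annotation, and all 10 were measured among 22180 genes. The desmosome genes were split from textbook knowledge into 4 that are largely restricted to stratified squamous epithelium (Dsg1a, Dsg3, Dsc3 and Pkp1) and 5 that simple epithelia make as well (Dsg2, Dsc2, Pkp3, Dsp and Jup).

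The arrays held RNA of whole stomach tissue from FVB mice aged 1 year, 2 arrays of Hdc-/- stomach and 2 of Hdc+/+ stomach. Histidine decarboxylase, the product of Hdc, turns histidine into histamine, and Hdc-/- mice lack a working copy of the gene. Each genotype has 2 biological replicates by title. Nothing else ties an array to an animal of its own, and p-values therefore measure only how far these samples spread. The labels name no sex, no batch and no treatment beyond the genotype.

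In a desmosome, the cadherins, which are the desmogleins (Dsg) and desmocollins (Dsc), bind the neighbouring cell. Plakoglobin (Jup) and the plakophilins (Pkp) hold their tails, and desmoplakin (Dsp) links that plaque to keratin. The mouse forestomach is lined by stratified squamous epithelium and the glandular stomach by simple columnar epithelium, so a whole stomach contains both kinds of desmosome. Simple epithelia use mainly Dsg2 and Dsc2, and stratified epithelia add the Dsg1, Dsg3, Dsc1 and Dsc3 isoforms.

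The values were log2 probe set values, with array medians between 4.05 and 4.15, and only 4 arrays limit the precision of every difference. The targeted gene Hdc read 3.77 and 4.06 on the Hdc-/- arrays, against 3.99 and 3.82 on the Hdc+/+ arrays. These values overlap, and the position of the probes relative to the deletion is unknown here, which leaves the genotype labels unchecked by Hdc. Tissue markers did fit the label, since each array ranked all 8 gastric gland markers at a percentile of 96.7 or more among its genes. All differences are Hdc-/- minus Hdc+/+ on the log2 scale from 1 limma fit over all genes, with the moderated standard error (SE) and n = 2 per group.

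The 4 squamous-restricted desmosome genes each read lower on both Hdc-/- arrays than on either Hdc+/+ array. The differences ran from -0.64 to -0.28, with a median of -0.41, where the median over all genes was 0.024. Of the 5 general desmosome genes 1, Dsc2, was separated in this way, and the other 4 differed by -0.15 to -0.046 with overlapping groups. Trp63 did not separate the genotypes. None of these differences passed the test over all genes. By limma with Benjamini-Hochberg adjustment at 0.05, 0 of the 10 genes were called in either direction, where 0.0% of all genes were called lower and 0.00451% higher. At an unadjusted p under 0.05, 2 of the 10 were lower (Dsg1a and Dsc2) and 0 higher, where 4.87% of all genes were lower and 3.68% higher. Lower values without overlap were found for 5 of the 10 genes and for 17.6% of all genes. All 10 differences had a negative sign, as did 45.9% of all genes. The 10 genes were picked with earlier results of these data known, so these counts carry no test of the set.

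**Figure D1:**
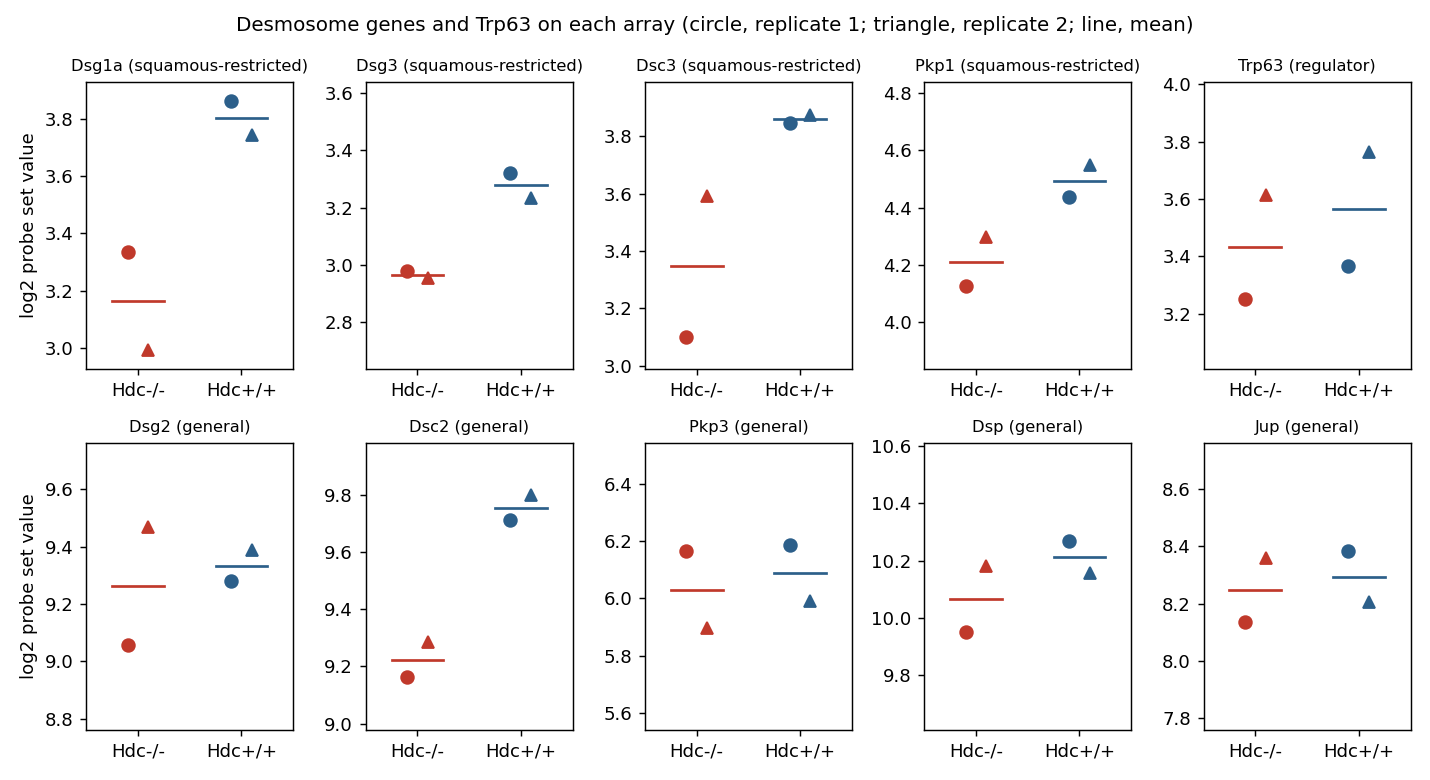
Log2 probe set values of the 10 genes on each array (vertical axis, each panel spanning 1 log2 unit), with the 2 Hdc-/- arrays left and the 2 Hdc+/+ arrays right; circles are replicate 1, triangles replicate 2 and lines group means. Both Hdc-/- points lie below both Hdc+/+ points for Dsg1a, Dsg3, Dsc3, Pkp1 and Dsc2, and the groups overlap for the other 5 genes.

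Among the squamous-restricted cadherins, Dsg1a (Entrez gene 13510), a copy of desmoglein 1, which belongs to the upper layers of stratified epithelium, had the largest difference. It read 3.33 and 2.99 on the Hdc-/- arrays, against 3.86 and 3.74 on the Hdc+/+ arrays. The nearest values of the groups were 0.41 apart, more than the gap of 0.34 between the Hdc-/- arrays. The difference was -0.64 (SE 0.19, 95% interval -1.11 to -0.17), or 1.56-fold lower, with an unadjusted p of 0.0165 and a limma adjusted p of 0.465. Dsg1a has closely similar copies, Dsg1b and Dsg1c, and its signal cannot be assigned to it alone with certainty.

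Dsg3 (Entrez gene 13512) encodes desmoglein 3, the cadherin of the basal and lower layers. It read 2.98 and 2.95 on the Hdc-/- arrays, against 3.32 and 3.23 on the Hdc+/+ arrays. The replicates lay close together and the groups were 0.26 apart. The difference was -0.31 (SE 0.16, 95% interval -0.70 to 0.081, limma adjusted p = 0.645), so it was not beyond the error of the fit.

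Dsc3 (Entrez gene 13507) encodes desmocollin 3, the partner cadherin of the basal layers. It read 3.10 and 3.59 on the Hdc-/- arrays, against 3.85 and 3.88 on the Hdc+/+ arrays. The Hdc-/- arrays were 0.49 apart, which is more than the 0.26 between the nearest arrays of the groups. The difference of -0.51 (SE 0.21, 95% interval -1.05 to 0.016, limma adjusted p = 0.590) therefore rested in large part on Hdc-/- replicate 1, being -0.27 without that array and -0.76 without Hdc-/- replicate 2.

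Pkp1 (Entrez gene 18772), the plakophilin of stratified epithelium, which strengthens the plaque there, read 4.13 and 4.30 on the Hdc-/- arrays, against 4.44 and 4.55 on the Hdc+/+ arrays. The groups were 0.14 apart, less than the 0.17 between the Hdc-/- arrays. Its difference was -0.28 (SE 0.17, 95% interval -0.70 to 0.13, limma adjusted p = 0.694).

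All 4 squamous-restricted genes were dim. Ranked among the genes of each array they fell between percentiles 15.8 and 49.2, below the gene median of every array. Background values were not used here, so how far these signals stand above background is unknown, and differences between dim signals tend to understate differences in RNA.

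Trp63 (Entrez gene 22061) read 3.25 and 3.61 on the Hdc-/- arrays, against 3.37 and 3.76 on the Hdc+/+ arrays. In both genotypes replicate 1 was the lower array, and the gaps between replicates, 0.36 and 0.40, exceeded the difference between the genotypes. That difference was -0.13 (SE 0.22, 95% interval -0.69 to 0.42, limma adjusted p = 0.918). Leaving out Hdc-/- replicate 1 or Hdc+/+ replicate 2 turned its sign, to 0.047 and 0.065. The interval still allows a fall of the size seen for Dsg1a, so a lack of difference was not shown. Trp63 was also dim, at percentiles from 21.7 to 31.8.

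Among the general desmosome genes, Dsc2 (Entrez gene 13506), the widespread desmocollin, stood apart from the other 4. It read 9.16 and 9.29 on the Hdc-/- arrays, against 9.71 and 9.80 on the Hdc+/+ arrays. The groups were 0.43 apart, with gaps of 0.12 and 0.085 between replicates. The difference was -0.53 (SE 0.16, 95% interval -0.93 to -0.13), or 1.44-fold lower, with an unadjusted p of 0.0186 and a limma adjusted p of 0.482. It ran from -0.59 to -0.47 when each array was left out in turn.

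Dsg2 (Entrez gene 13511), the widespread desmoglein that pairs with Dsc2, read 9.06 and 9.47 on the Hdc-/- arrays, against 9.28 and 9.39 on the Hdc+/+ arrays. The Hdc-/- arrays held both the lowest and the highest value. Its difference was -0.072 (SE 0.20, 95% interval -0.57 to 0.43, limma adjusted p = 0.962), and a second, dim probe set of Dsg2 differed by -0.12 (SE 0.19). Dsc2 and Dsg2 thus had unlike differences on the same arrays, and whether these differ from each other was not tested.

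The plaque genes overlapped as well. Dsp (Entrez gene 109620), the keratin anchor that every desmosome needs, read 9.95 and 10.18 on the Hdc-/- arrays, against 10.27 and 10.15 on the Hdc+/+ arrays, a difference of -0.15 (SE 0.17, 95% interval -0.58 to 0.29). Jup (Entrez gene 16480), which serves both desmosomes and adherens junctions, read 8.14 and 8.36 on the Hdc-/- arrays, against 8.38 and 8.20 on the Hdc+/+ arrays, a difference of -0.046 (SE 0.18, 95% interval -0.49 to 0.39). Pkp3 (Entrez gene 56460), the most widespread of the epithelial plakophilins, read 6.16 and 5.90 on the Hdc-/- arrays, against 6.19 and 5.99 on the Hdc+/+ arrays, a difference of -0.059 (SE 0.18, 95% interval -0.52 to 0.40). For Dsp and Jup, Hdc-/- replicate 1 was the lowest array and Hdc+/+ replicate 1 the highest, whereas Pkp3 was higher on replicate 1 in both genotypes. The limma adjusted p was 0.869 for Dsp, 0.974 for Jup and 0.969 for Pkp3. The 5 general genes lay at percentiles from 74.2 to 99.4, so the overlap of these 4 genes was seen at bright signals.

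**Figure D2:**
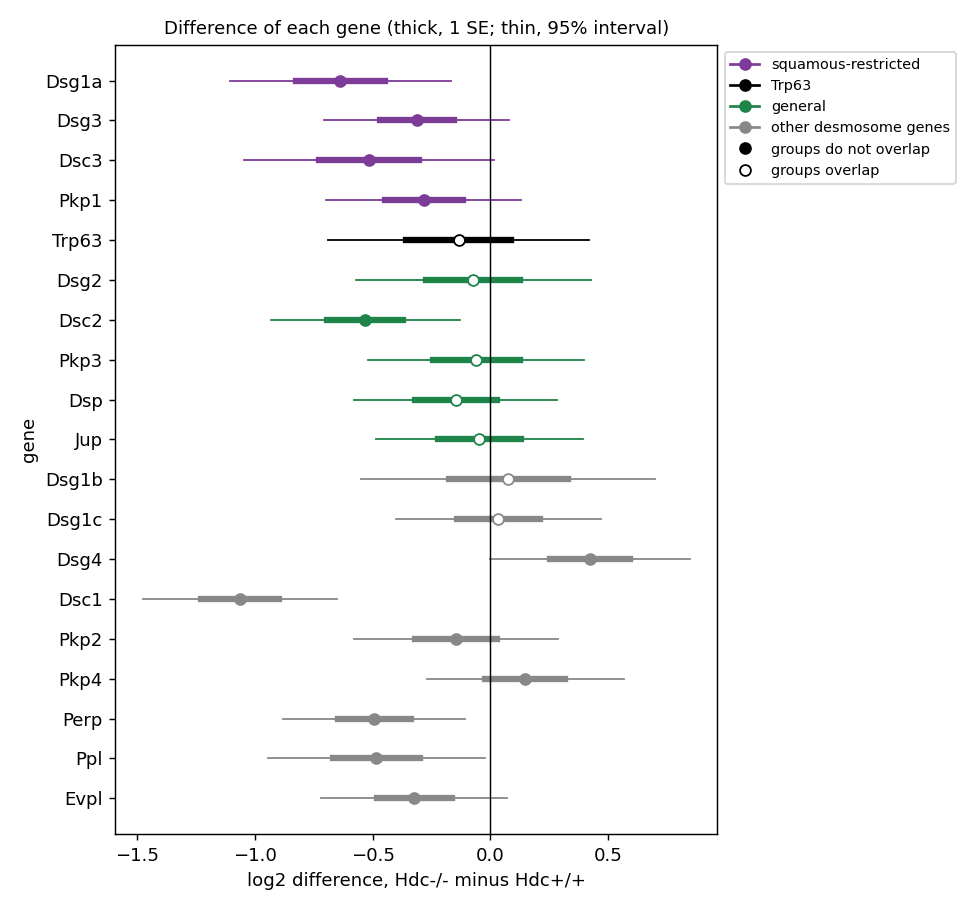
Log2 difference, Hdc-/- minus Hdc+/+ (horizontal axis), of the 10 genes and of 9 further desmosome genes (vertical axis); thick bars are 1 SE, thin bars the 95% interval of the limma fit, filled points genes whose groups do not overlap and open points genes whose groups do. The 4 squamous-restricted genes, Dsc2, Dsc1, Perp, Ppl and Evpl lie between -1.06 and -0.28, and Dsp, Jup, Pkp3, Dsg2 and Trp63 lie nearer to 0. Of the rest, Pkp2 lies at -0.15, and Dsg1c, Dsg1b and Pkp4 lie between 0.035 and 0.15. Dsg4 lies at 0.42, with groups that do not overlap.

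The classes were set against each other on each array as the mean of their values around gene means. The squamous-restricted mean was -0.26 and -0.18 on the Hdc-/- arrays, against 0.23 and 0.21 on the Hdc+/+ arrays. The general mean was -0.16 and -0.013 on the Hdc-/- arrays, against 0.12 and 0.055 on the Hdc+/+ arrays. The squamous-restricted mean thus minus the general mean was -0.098 and -0.17 on the Hdc-/- arrays, against 0.11 and 0.15 on the Hdc+/+ arrays, as a description without a test. The general class moved with single arrays. Its median difference of -0.072 was -0.26 without Hdc-/- replicate 2, -0.16 without Hdc+/+ replicate 2 and -0.030 without Hdc-/- replicate 1, and 4 of its 5 genes were lower without overlap when either Hdc-/- replicate 2 or Hdc+/+ replicate 2 was left out, where 33.6% and 32.9% of all genes were. Without Hdc-/- replicate 1 that count was 2, where 33.5% of all genes were lower without overlap. The squamous-restricted median moved as well, from -0.41 to -0.30 without Hdc-/- replicate 1. It was between -0.43 and -0.42 when any other array was left out.

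The 2 members with a RefSeq promoter window, of the 10, are both general plaque genes whose groups overlapped. Their windows are shown because no other member had one. Dsp and Jup encode the anchor and linker that both kinds of desmosome share. Each window runs from 250 bases before to 50 bases after the start site in GRCm38.p6, and capitals mark the motif matches found on either strand. The Dsp window lies at chr13:38151044-38151343 on the + strand, and the Jup window at chr11:100397741-100398040 on the - strand.
Dsp: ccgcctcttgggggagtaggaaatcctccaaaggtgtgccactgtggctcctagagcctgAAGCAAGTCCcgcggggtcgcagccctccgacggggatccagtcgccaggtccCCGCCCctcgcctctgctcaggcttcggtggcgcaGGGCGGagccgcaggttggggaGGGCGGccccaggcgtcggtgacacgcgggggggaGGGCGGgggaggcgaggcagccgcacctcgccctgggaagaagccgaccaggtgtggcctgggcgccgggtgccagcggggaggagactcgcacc
Jup: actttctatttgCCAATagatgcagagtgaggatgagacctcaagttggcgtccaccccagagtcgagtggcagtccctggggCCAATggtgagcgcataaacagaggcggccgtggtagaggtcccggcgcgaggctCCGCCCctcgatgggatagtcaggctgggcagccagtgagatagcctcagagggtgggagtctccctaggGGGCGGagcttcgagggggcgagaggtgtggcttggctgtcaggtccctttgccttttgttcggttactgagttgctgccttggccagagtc

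The motifs searched were the GC box (GGGCGG), the CAAT box (CCAAT), the core of the TATA box (TATAAA) and the grainyhead-like factor motif (AACCNGTT). The 10-letter half-site (RRRCWWGYYY) of the p53 family, to which p63 belongs, was searched as well. Only single half-sites were searched, not a full element of paired half-sites. The Dsp window held the GC box at 4 places and 1 p53-family half-site, the capitals nearest the 5′ end, starting at -190 from the start site. The Jup window held the GC box at 2 places and the CAAT box at 2. No match overlapped another. Of all 32851 RefSeq windows of this length, 35.7% held the GC box, 37.4% the CAAT box, 13.6% the TATA core, 2.09% the grainyhead-like motif and 8.36% the p53-family half-site. Neither window held the TATA core or the grainyhead-like motif in these letters, and GC content was 73.0% for Dsp and 60.7% for Jup, against a median of 52.7% over all windows.

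Of 9 further desmosome genes, 5 had a negative and 4 a positive difference. Of these, 5 were lower without overlap and 2 higher, where 17.6% and 21.5% of all genes were, and limma called 0 in either direction. At an unadjusted p under 0.05, 3 were lower and 0 higher, where 4.87% and 3.68% of all genes were. Dsc1, the desmocollin of the uppermost living layers of stratified epithelium, had the largest difference. It read 3.28 and 3.19 on the Hdc-/- arrays, against 4.38 and 4.21 on the Hdc+/+ arrays, a difference of -1.06 (SE 0.17, unadjusted p = 0.000873, limma adjusted p = 0.263), or 2.09-fold lower. The replicates of each genotype were within 0.17 of each other, and the groups 0.93 apart.

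Perp, a membrane protein of stratified desmosomes and a known p63 target in mouse, was bright and separated the genotypes without overlap. It read 9.33 and 9.34 on the Hdc-/- arrays, against 9.81 and 9.84 on the Hdc+/+ arrays, a difference of -0.49 (SE 0.16, limma adjusted p = 0.491). Ppl and Evpl encode periplakin and envoplakin, which link desmosomes to the cornified envelope. Ppl read 5.51 and 5.45 on the Hdc-/- arrays, against 5.80 and 6.13 on the Hdc+/+ arrays, a difference of -0.48 (SE 0.19). Evpl differed by -0.32 (SE 0.16). Pkp2, the plakophilin of simple epithelium and heart, differed by -0.15 (SE 0.17), with groups only 0.0052 apart, and Pkp4 by 0.15 (SE 0.17).

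The desmosomal cadherins are neighbours in 1 gene cluster, in the order Dsc3, Dsc2, Dsc1, Dsg1c, Dsg1a, Dsg1b, Dsg4, Dsg3 and Dsg2 in the gene table of GRCm38.p6. The 3 desmocollins, which adjoin each other at one end, were all lower without overlap. The desmogleins were mixed. Dsg1a and Dsg3 were lower, Dsg2, Dsg1b (difference 0.078, SE 0.25) and Dsg1c (0.035, SE 0.18) overlapped, and Dsg4, the desmoglein of the hair shaft, read higher by 0.42 (SE 0.17, limma adjusted p = 0.586). In all, 5 of the 9 cadherins were lower without overlap and 1 higher, where 17.6% and 21.5% of all genes were, and 7 of the 9 lay below the gene median of every array. Next to Dsg2 lies Ttr, the gene of the plasma protein transthyretin, which differed by -2.06 (SE 0.53).

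**Figure D3:**
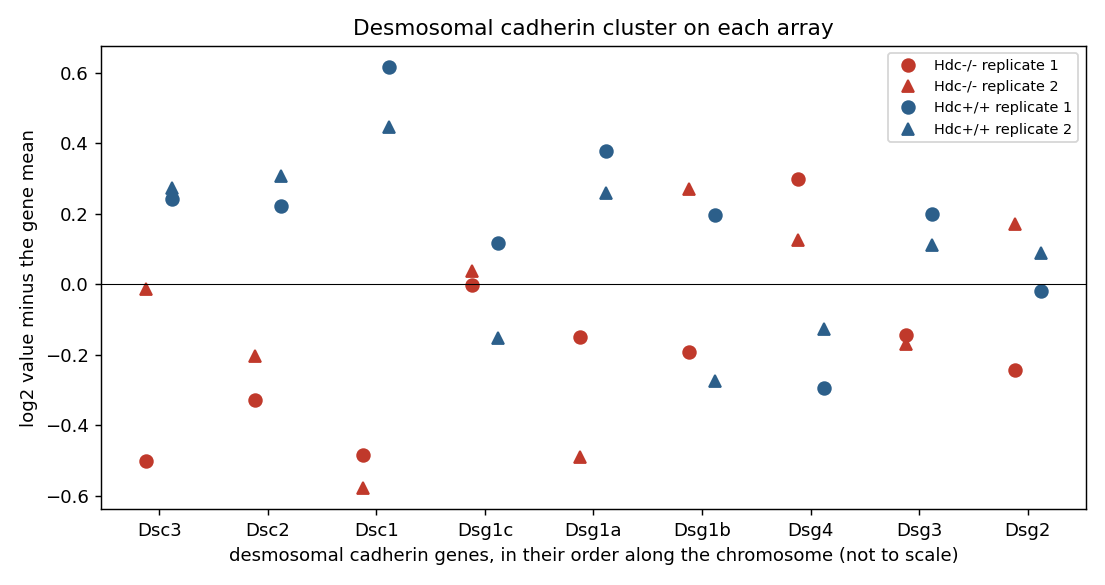
Log2 value minus the gene mean (vertical axis) of the 9 desmosomal cadherin genes in their order along the chromosome (horizontal axis, not to scale), with Hdc-/- arrays left of Hdc+/+ arrays for each gene; circles are replicate 1 and triangles replicate 2. Both Hdc-/- points lie below both Hdc+/+ points for Dsc3, Dsc2, Dsc1, Dsg1a and Dsg3, above them for Dsg4, and among them for Dsg1c, Dsg1b and Dsg2.

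Of 7 suprabasal squamous markers 6 were lower without overlap, where 17.6% of all genes were, with a median difference of -1.85. Limma called 0 of them in either direction, against 5 lower and 0 higher at an unadjusted p under 0.05, where 4.87% and 3.68% of all genes were. Their part in the differences of the squamous-restricted desmosome genes was not tested. Krt4, a keratin of the forestomach and oesophageal lining, differed by -2.15 (SE 0.21, adjusted p = 0.189), Krt1 by -2.17 (SE 0.45) and Krt10, the partner of Krt1 in upper layers, by -1.85 (SE 0.48). The mean of the 7 markers around gene means was -1.10 and -0.31 on the Hdc-/- arrays, against 0.43 and 0.98 on the Hdc+/+ arrays. The replicates of each genotype therefore differed more in these markers than in the squamous-restricted desmosome genes. Of the basal keratins, Krt14, which pairs with Krt5 in basal cells, read 3.87 and 3.68 on the Hdc-/- arrays, against 4.29 and 4.47 on the Hdc+/+ arrays, a difference of -0.60 (SE 0.17, adjusted p = 0.460). Krt15 overlapped (0.14, SE 0.33). In bulk tissue, fewer squamous cells and less RNA per squamous cell cannot be told apart.

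The 6 adherens junction genes had a median difference of -0.074, with 3 lower and 1 higher without overlap, where 17.6% and 21.5% of all genes were. Of these, Ctnnd1 (p120 catenin) and Ctnna1 (alpha catenin) differed by -0.19 (SE 0.16) and -0.19 (SE 0.18). Vcl was higher without overlap, by 0.16 (SE 0.17). Cdh1 (E-cadherin), added after values were seen, had a difference of -0.10 (SE 0.16). The 7 measured hemidesmosome genes, whose products fix basal cells to the basement membrane, had a median of 0.10, with 0 lower and 2 higher without overlap, where 17.6% and 21.5% of all genes were. Lamb3, a chain of the laminin that hemidesmosomes bind, read 7.66 and 8.38 on the Hdc-/- arrays, against 7.21 and 7.49 on the Hdc+/+ arrays, a difference of 0.67 (SE 0.28, adjusted p = 0.591), larger in size than that of any of the 10 members. Limma called 0 genes of either list, with 0 at an unadjusted p under 0.05, where 4.87% of all genes were lower and 3.68% higher.

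The 9 measured relatives and targets of p63 had a median difference of 0.054, with 2 lower and 1 higher without overlap, which is near or under the 17.6% and 21.5% of all genes. Limma called 0, against 2 lower at an unadjusted p under 0.05, where 4.87% of all genes were. The 2 were Grhl3, a grainyhead-like factor of the epidermal barrier, and Jag2, a Notch ligand. Grhl3 read 3.96 and 4.23 on the Hdc-/- arrays, against 4.76 and 4.88 on the Hdc+/+ arrays, a difference of -0.72 (SE 0.18, adjusted p = 0.400). Jag2 differed by -0.65 (SE 0.18, adjusted p = 0.451), and Ovol1, a repressor of differentiating epithelium, by 0.29 (SE 0.18).

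**Figure D4:**
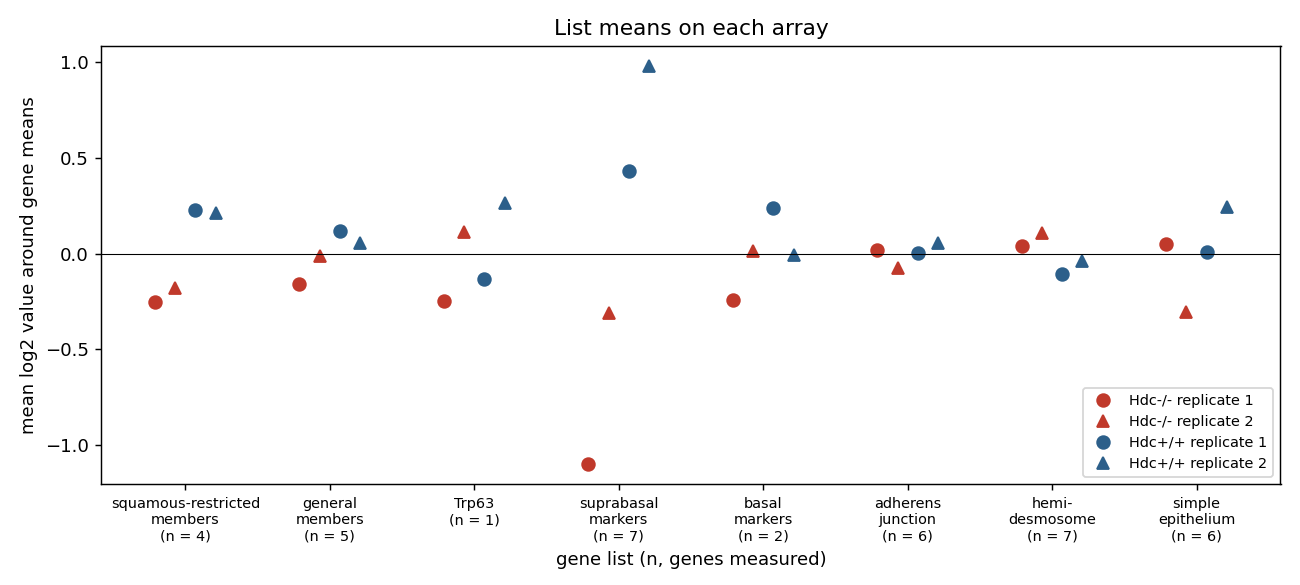
Mean log2 value around gene means (vertical axis) of 8 gene lists (horizontal axis, with the number of genes measured) on each array; red points are Hdc-/- arrays, blue points Hdc+/+ arrays, circles replicate 1 and triangles replicate 2. The squamous-restricted desmosome genes and the suprabasal markers separate the genotypes most widely. The Trp63, basal marker, adherens junction and simple epithelium points of the genotypes overlap.

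Markers of other tissues differed on the same arrays, and their part in the desmosome differences was not tested. The 6 simple epithelium markers had a median difference of -0.095. Cldn7, a tight junction claudin, was the 1 with an unadjusted p under 0.05 (-1.37, SE 0.44), where 4.87% of all genes were lower. The log2 summed signal of the 6 markers was 12.8 and 12.6 on the Hdc-/- arrays, against 12.8 on both Hdc+/+ arrays. Of 7 intestinal markers 6 were lower without overlap (median -3.02), where 17.6% of all genes were, and their log2 summed signal was 8.07 and 7.81 on the Hdc-/- arrays, against 9.97 and 12.2 on the Hdc+/+ arrays. All 5 measured hepatocyte markers were lower without overlap (median -4.82), where 17.6% of all genes were. Their log2 summed signal was 8.83 and 9.37 on the Hdc-/- arrays, against 11.9 and 13.2 on the Hdc+/+ arrays. Intestinal epithelium builds its desmosomes from Dsg2 and Dsc2. Dsc2 was lower without overlap and Dsg2 overlapped, and the part of intestinal tissue in either was not tested.

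The 3 measured pancreatic markers were highest on Hdc+/+ replicate 2, where their log2 summed signal was 10.9, against 5.48 on Hdc+/+ replicate 1. Without that array the squamous-restricted median was -0.43. The remaining Hdc+/+ array still had more hepatocyte and intestinal signal than the Hdc-/- arrays, so the part of other tissues was not tested by this. The adipocyte markers were lower without overlap in all 5 cases, where 17.6% of all genes were, the 6 smooth muscle markers had a median of -0.26, and the 4 measured leukocyte markers a median of 0.64. The 8 gastric gland markers had a median of -0.017, with 2 higher and 1 lower without overlap, where 21.5% and 17.6% of all genes were. The same 2, against 3.68% of all genes, were higher at an unadjusted p under 0.05. They were Cblif, which encodes intrinsic factor of the stomach (1.07, SE 0.25, adjusted p = 0.396), and Pgc, the gene of the protease precursor pepsinogen C (0.64, SE 0.25, adjusted p = 0.582).

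The genes most like Trp63 over the 4 arrays, by root mean square distance between values around gene means, were Bpifa1 (0.017), Olfr930 (0.021), Zfp82 (0.027), Otud7b (0.027) and Slc18a1 (0.031). Of the desmosome members, Dsg2 lay nearest to Trp63 (0.11) and Dsg1a farthest (0.40). The genes most like Dsp were Stap2, Olfr883, Csn1s1, Rassf3 and Defb7, at 0.010 to 0.014, and Jup lay at 0.055. Over only 4 arrays likeness says little, and both profiles spanned small ranges on the log2 scale, 0.51 for Trp63 and 0.32 for Dsp.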

How the data were processed

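The authors deposited log2 values per probe set after RMA normalization. Further tools in the submitters' processing notes are oligo and Affymetrix Power Tools, with no version or role, and RMA is credited to the same notes. The level of probe summary, filters and build were not given in the sources used here. Of 41345 probe sets, 23521 had 1 gene symbol in the platform annotation, 1814 several and 16010 none. Of the probe sets of a gene, where it had several (1082 genes), the brightest by mean over the 4 arrays was taken, which left 22180 genes. The 10 members matched the GRCm38.p6 gene table by Entrez identifier. Genotypes were compared with limma 3.58.1 (lmFit and eBayes, no covariate, R 4.3.3) with Benjamini-Hochberg adjustment at 0.05. Residual degrees of freedom were 2 and those of the prior 3.62. The fit was run on simulated data with planted changes larger than any difference of the 10 members. That run does not show whether differences of the members' size would be called. An exact permutation test of 1 gene cannot give a p below 0.333 here. The members and lists were chosen with earlier results of these data known. By rule, all 10 members, all other desmosome genes and up to 3 genes with the smallest p per list could be named, with the 5 genes nearest in profile to Trp63 and to Dsp; Cdh1, Ttr and Krt5 were added after values were seen. A count "without overlap" means that both arrays of one genotype lay beyond both of the other. The alternatives changed the filter, normalization, prior, probe set choice, replicate block and arrays used.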

Additional observations from a re-analysis of the deposited data

How the results depend on the processing

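No member passed the test under any alternative run, with adjusted p no lower than 0.342. The members' signs held under every normalization and probe set choice tried, though Jup was only -0.00014 with quantile normalization. Probe set choice could change only Dsg2. The filter, prior and block settings leave each member's difference unchanged, so its sign could not turn there. With arrays left out in turn, 7 of 40 member differences turned positive: Dsg2, Jup and Trp63 without Hdc-/- replicate 1, Pkp3 without Hdc-/- replicate 2, Pkp3 and Jup without Hdc+/+ replicate 1, and Trp63 without Hdc+/+ replicate 2. Their ranges were -0.28 to 0.13 for Dsg2, -0.19 to 0.075 for Pkp3, -0.16 to 0.064 for Jup and -0.33 to 0.065 for Trp63. Leaving out each array in turn, the median of the squamous-restricted members ran from -0.43 to -0.30 and that of the general members from -0.26 to -0.030. The general count without overlap ran from 1 to 4 and the count over all 10 members from 6 to 9, since fewer arrays make overlap less likely. With 1 array left out, 27.8% to 33.6% of all genes were lower without overlap, against 17.6% with every array kept. The squamous-restricted count stayed at 4 by construction, as separated groups cannot overlap when an array is removed. These counts were added after seeing the data, and they were the same (4, 1 and 5) under quantile, cyclic loess and median scaling. Under these scalings 16.9%, 20.6% and 16.8% of all genes were lower without overlap. Over all genes, limma called 1 higher and 0 lower, against 2 and 3 with quantile normalization, 3 and 2 with a trended and robust prior, 0 and 0 with every probe set tested, and 0 to 3 and 0 to 158 with arrays left out. The dimmest 25% of genes held Dsg1a, Dsg3 and Trp63, and the dimmest 50% held all 4 squamous-restricted genes and Trp63, so no squamous-restricted median exists under that filter. The arrays share only a replicate number: same-numbered arrays had deviations that correlated at -0.12, and with the replicate block limma called 1 higher and 6 lower. A crossed replicate block, added after seeing the data, called 0 higher and 0 lower. The cause of these changes in counts was not tested.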
